A study of Mus musculus with 18 samples.

Results

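The collagen genes described here were every gene whose mouse symbol has the collagen form (Col, a type number, the letter a and a chain number) and whose FPKM was above 0 in at least 3 libraries. FPKM counts fragments for each kilobase of a transcript relative to library size, so levels of different genes are compared per length. The rule found 43 genes among 23235 symbols: 11 fibrillar collagens, 8 of basement membranes (types IV, XV and XVIII) and 24 others. Of these, 35 had a mean of at least 0.5 FPKM and were tested, namely all 11 fibrillar, all 8 basement membrane and 16 other genes. The tissue was the arcuate nucleus of the hypothalamus, microdissected from ovariectomized female mice whose strain is given as C57/BL. Wild-type (WT) mice were compared with ERKO mice, labelled as knockouts of the estrogen receptor ERα, and with KIKO mice, a name generally used for mice with a null allele and a knocked-in mutant ERα unable to bind estrogen response elements. Mice received oil, or estradiol benzoate (E2) at 250 ng (day 5 from ovariectomy) and 1500 ng (day 6), and were killed 24 h after the last injection, with a 1 h fast. The groups, named WT, KIKO or ERKO followed by oil or E2, held 3 libraries each, and thus 18 together. How the alleles were made, and whether a library is a single animal, is not in the labels, so p-values measure the spread between libraries. All values come from bulk tissue.

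Collagens are trimeric proteins of the extracellular matrix. Fibrillar types such as I, II, III, V and XI form the cables of connective tissue, type IV forms the sheet-like network under blood vessels and the meninges, and several of the others sit on fibrils or cross the cell membrane. In brain they are known from vessel walls, the meninges and perivascular fibroblasts, while a few membrane-bound and fibril-associated types are made by neurons. ERα, encoded by Esr1, can act by binding estrogen response elements in DNA or without doing so.

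Esr1 ranged from 3.45 to 11.9 FPKM in the 6 WT libraries, from 2.85 to 4.08 in KIKO and from 0.212 to 2.39 in ERKO, and which part of the gene the ERKO allele lacks is not stated in the labels. The 7 arcuate markers, among them Kiss1, Agrp and Pomc, were all detected. The third ERKO E2 library (ERKO E2 3) stood apart: over the tested genes it correlated with the others at 0.919 to 0.954, against 0.963 to 0.995 among the other 17. Its Esr1 was 0.212 FPKM, against 1.62 to 2.39 FPKM in the other ERKO libraries. Its collagen levels were often the lowest of all, so results are also given without it. The 10 markers of meningeal and perivascular fibroblasts summed to 13.04 to 21.0 FPKM in 5 libraries (WT oil 1, WT E2 1, WT E2 2, ERKO oil 3 and ERKO E2 3) and to 29.2 to 141 FPKM in the other 13. Much of this sum was 1 gene, Dcn, at 4.85 to 8.91 FPKM in the 5 and 19.6 to 110 FPKM in the other 13. In the same 5 libraries the pars tuberalis and pituitary markers summed to 2.36 to 18.2 FPKM, against 25.1 to 365 FPKM in the rest. In the rest, most of that sum was Cga, at 19.2 to 307 FPKM. No KIKO library was among the 5.

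Col24a1, a fibrillar collagen known from developing bone and cornea, carried the largest E2 response among the collagens, so the 250 bases before its start site are shown. The sequence is that of RefSeq for GRCm38.p6, plus strand, chr3:145292222-145292471. Capitals mark GGTCA or its reverse complement TGACC, the 5 bases that make up either arm of an estrogen response element.

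Col24a1: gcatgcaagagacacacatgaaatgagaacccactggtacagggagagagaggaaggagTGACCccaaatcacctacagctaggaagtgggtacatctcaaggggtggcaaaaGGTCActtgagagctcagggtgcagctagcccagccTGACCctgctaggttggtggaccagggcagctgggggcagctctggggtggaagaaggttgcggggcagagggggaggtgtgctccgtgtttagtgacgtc

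The window held 3 such arms, and no full element of 2 facing arms (GGTCA, any 3 bases, TGACC). Over 32851 RefSeq windows of the same length, searched on both strands, 35.2% held at least 1 arm and 1.51% held at least 3. Windows were found for 35 of the 43 collagen symbols (38 windows), of which 14 held an arm and 0 held the full element, which 0.0639% of all windows held. No window was found for Col2a1. A match describes these letters and does not show that the receptor binds there.

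Col23a1, a membrane-spanning collagen, had the highest level of all the collagen genes, with a mean of 57.5 FPKM over the 18 libraries (45.3 to 70.4). Next came Col25a1, another membrane-spanning collagen, made by neurons and known from amyloid plaques, at 33.9 FPKM (7.47 to 44.2). Among the basement membrane genes, Col4a2 (32.3 FPKM) and Col4a1 (17.2 FPKM), whose products make up the common type IV network, stood above Col18a1 (5.76) and Col4a5 (4.52). The fibrillar genes were lower and closer together, led by Col2a1 at 8.02, Col11a1 at 7.80, Col1a2 at 6.59 and Col5a2 at 6.58 FPKM. The most abundant of the other class also included Col9a2 (15.6 FPKM), a chain that coats cartilage fibrils, and Col6a1 (14.8 FPKM), a chain of beaded microfibrils. Markers of cartilage and bone (8 genes, among them Acan and Comp) summed to only 0.764 to 2.07 FPKM.

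In WT, E2 raised 2 fibrillar collagens and no collagen of another class. The 2 were called among 35 tested collagens, where limma called 0.785% of the 14777 genes tested (0.602% as higher) at an adjusted p under 0.05. Col24a1 lay at 0.544, 0.496 and 0.701 FPKM in WT oil (0.580 ± 0.107, SD, n = 3) and at 5.82, 5.85 and 5.10 FPKM in WT E2 (5.59 ± 0.425). The 2 groups were far apart, and the means differed 9.64-fold. On the log2(FPKM + 1) scale of the fit, where the added 1 makes changes of low genes smaller, the change was 2.06 ± 0.14 (SE; limma adjusted p = 6.23e-07). The confidence bounds deposited with the values imply about 51, 57 and 78 fragments for Col24a1 in WT oil and 640, 597 and 592 in WT E2. In bulk tissue, more cells of a type and more RNA per cell cannot be told apart.

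Col2a1 encodes type II collagen, the main fibril of cartilage and of the vitreous of the eye. It lay at 12.01, 8.92 and 8.03 FPKM in WT oil (9.65 ± 2.09) and at 22.0, 24.7 and 20.01 FPKM in WT E2 (22.2 ± 2.33), again without overlap. The change was 1.14 ± 0.21 on the log2 scale (adjusted p = 0.0123), 2.30-fold between the means. The call was lost when WT oil 2, WT oil 3, WT E2 1 or WT E2 2 was left out, with adjusted p values up to 0.0748. Of the whole fibrillar sum, Col2a1 made up 16.5% ± 6.75 in WT oil and 35.6% ± 8.69 in WT E2. By library the shares were 24.2, 13.9 and 11.4% in WT oil and 37.0, 43.6 and 26.3% in WT E2. Within each group the larger shares were in libraries low in fibroblast markers (WT oil 1, WT E2 1 and WT E2 2). The part of fibroblast content in these shares was not tested.

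**Figure D1:**
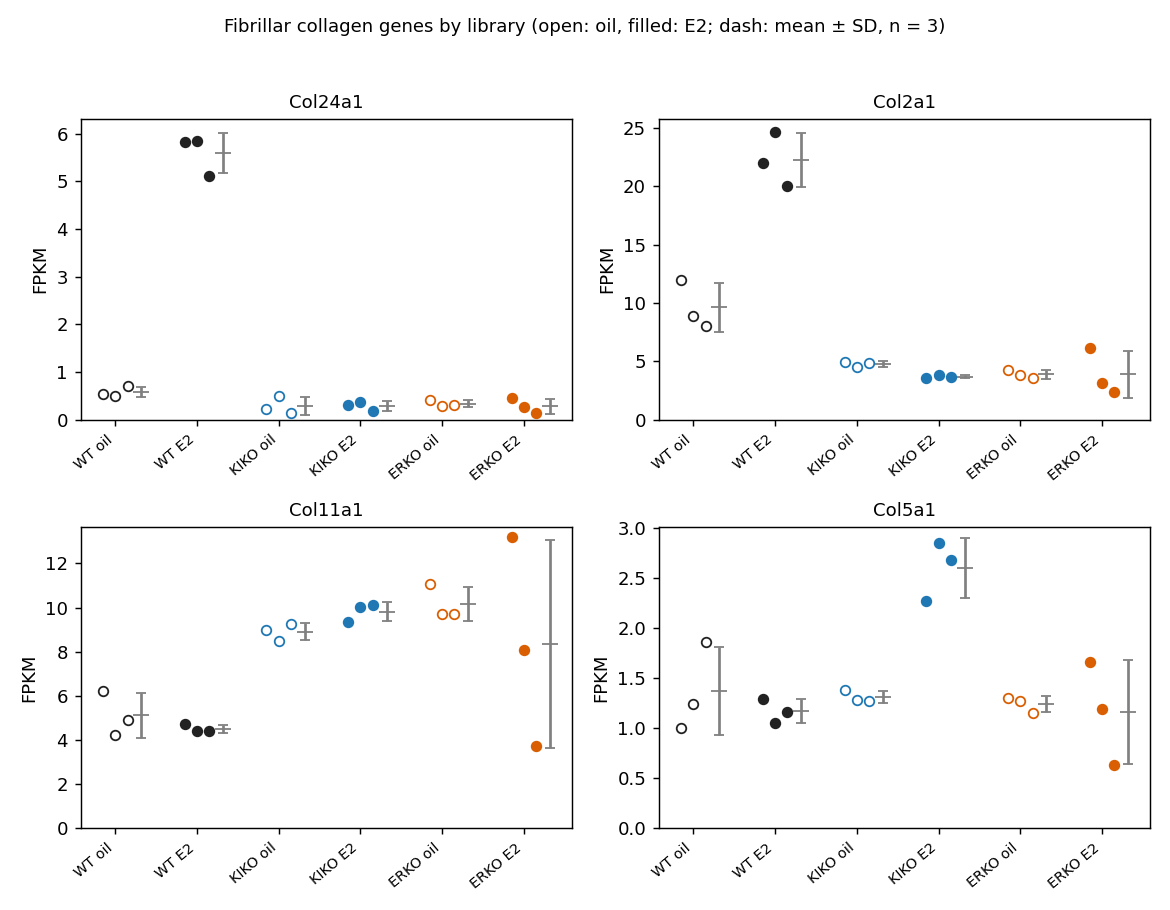
FPKM of 4 fibrillar collagen genes in each library (points; open for oil, filled for E2), by group, with the mean ± SD of 3 libraries beside them. Col24a1 and Col2a1 were highest in the 3 WT E2 libraries, Col11a1 was higher in KIKO and ERKO oil than in WT oil, and Col5a1 was highest in KIKO E2.

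Most other collagens lay slightly lower after E2 in WT. The log2 change was above 0 for 10 of the 35 collagens, against 52.4% of all genes, and its median was −0.15 against 0.01 over all genes. Groups did not overlap for 7 collagens, 3 higher and 4 lower, to be read against 15.8% of all genes (9.37% higher, 6.45% lower). The third higher one was Col19a1, a fibril-associated collagen made by interneurons, at 0.408, 0.303 and 0.548 FPKM in WT oil and 0.787, 0.743 and 0.884 in WT E2 (0.35 ± 0.23, adjusted p = 0.678). Col11a2, a type XI chain, lay at 8.43, 7.78 and 7.26 FPKM in WT oil and at 4.99, 4.87 and 5.00 in WT E2. Its change of −0.56 ± 0.23 missed the threshold (adjusted p = 0.387) and passed it without ERKO E2 3 in the fit (adjusted p = 0.0150), where 3 collagens and 2.69% of all genes were called. Fibroblast markers overlapped between the 2 groups, at 13.04, 113 and 127 FPKM in WT oil and 17.9, 15.4 and 141 FPKM in WT E2. Other markers were lower in WT E2 without overlap. The 4 of astrocytes summed to 392 to 459 FPKM against 486 to 619 in WT oil, and the 7 of the arcuate nucleus to 2760 to 3214 against 3889 to 4708. In such sums, fewer cells and less RNA per cell, as with E2 acting on the marker genes themselves, cannot be told apart. The part of any of these markers in the collagen values was not tested. With the fibroblast marker sum as a covariate, an alternative chosen after seeing the data, the log2 change was above 0 for 14 of 35 collagens (53.7% of all genes) and the median was −0.10.

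Under E2, both Col24a1 and Col2a1 were lower in either mutant than in WT, and a single collagen, Col5a1, was higher in KIKO. For KIKO against WT the calls were 1 higher and 2 lower of 35, against 0.947% of all genes called. For ERKO against WT they were 0 higher and 2 lower, against 1.3%. Both comparisons use the same WT E2 libraries. Col24a1 lay at 0.314, 0.381 and 0.174 FPKM in KIKO E2 and at 0.447, 0.278 and 0.137 FPKM in ERKO E2. All 6 values were below the 3 WT oil values, and the WT E2 mean was 19.3 times that of KIKO E2 and 19.5 times that of ERKO E2. The log2 differences were −2.35 ± 0.14 for KIKO (adjusted p = 1.76e-07) and −2.36 ± 0.14 for ERKO (adjusted p = 9.54e-08). Col2a1 lay at 3.55, 3.81 and 3.65 FPKM in KIKO E2 and at 6.19, 3.16 and 2.36 FPKM in ERKO E2. Its log2 differences were −2.31 ± 0.21 for KIKO (adjusted p = 1.44e-05) and −2.32 ± 0.21 for ERKO (adjusted p = 8.95e-06). The ERKO call for Col2a1 was lost when only these 2 groups entered the fit (adjusted p = 0.0788).

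The E2 response of Col24a1 itself differed between genotypes, the only collagen for which that test passed. For KIKO minus WT, 1 of 35 collagens was called (0.135% of all genes), and for ERKO minus WT also 1 of 35 (0.277%). Col24a1 lay at 0.224, 0.508 and 0.139 FPKM in KIKO oil, which overlaps its KIKO E2 values, and at 0.415, 0.292 and 0.316 FPKM in ERKO oil, which overlaps ERKO E2. Its change with E2 was 0.01 ± 0.14 in KIKO (adjusted p = 1) and −0.06 ± 0.14 in ERKO (adjusted p = 0.805). The response was smaller than in WT by −2.05 ± 0.19 in KIKO (adjusted p = 8.75e-05) and by −2.13 ± 0.19 in ERKO (adjusted p = 6.34e-05). Between KIKO and ERKO the responses differed by 0.07 ± 0.19 (adjusted p = 0.897). For Col2a1 the same differences were −1.44 ± 0.29 in KIKO (adjusted p = 0.0847) and −1.21 ± 0.29 in ERKO (adjusted p = 0.119). The KIKO value passed without ERKO E2 3 (adjusted p = 0.0100), which made 2 of 35 collagens against 0.284% of all genes.

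Under oil, without any E2, Col2a1 was lower in ERKO than in WT, the only collagen called. Col2a1 lay at 4.93, 4.49 and 4.89 FPKM in KIKO oil (4.77 ± 0.240) and at 4.28, 3.81 and 3.57 FPKM in ERKO oil (3.89 ± 0.366). Neither mutant group overlapped WT oil. In ERKO the log2 difference was −1.11 ± 0.21 (adjusted p = 0.0274), 1 of 35 collagens, where 1.43% of all genes were called. This call was lost when WT oil 1, WT oil 2 or any of the ERKO oil libraries was left out, with adjusted p values up to 0.119. In KIKO the difference was −0.87 ± 0.21 (adjusted p = 0.190). Astrocyte markers summed to 388 to 408 FPKM in ERKO oil and 427 to 442 in KIKO oil. In the same order, arcuate markers summed to 2477 to 2528 and 2880 to 3640, and tanycyte markers to 125 to 143 and 122 to 144. Those of oligodendrocyte precursors summed to 93.5 to 97.1 and 104 to 106. Each of these sums lay below WT oil without overlap. Neuron markers lay above WT oil (718 to 722 FPKM) without overlap, at 725 to 783 in ERKO oil and 769 to 805 in KIKO oil. Cell number and RNA per cell cannot be told apart in such sums, and their part was not tested. For KIKO oil against WT oil no collagen of 35 was called, where limma called 0.0135% of all genes. In that comparison 3 collagens had an unadjusted p under 0.05 against 10.1% of all genes.

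Col11a1, whose chain joins type II fibrils, was higher in most mutant libraries. It lay at 6.19, 4.22 and 4.90 FPKM in WT oil and at 4.71, 4.38 and 4.42 FPKM in WT E2. KIKO libraries held 8.96, 8.48 and 9.25 FPKM with oil and 9.34, 10.01 and 10.1 FPKM with E2. ERKO libraries held 11.1, 9.72 and 9.69 FPKM with oil and 13.2, 8.10 and 3.74 FPKM with E2. Thus 11 of the 12 mutant libraries lay above all 6 WT libraries, and the remaining one was ERKO E2 3. In the fit over all 18 libraries no Col11a1 difference passed: 0.71 ± 0.26 for KIKO oil (adjusted p = 0.342), 0.88 ± 0.26 for ERKO oil (0.0835), 0.97 ± 0.26 for KIKO E2 (0.115) and 0.62 ± 0.26 for ERKO E2 (0.354). Without ERKO E2 3 all 4 passed, with adjusted p values of 0.0249, 0.00192, 0.000800 and 0.00109 in the same order, and the ERKO E2 difference was 1.05.

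Without that library in the fit the collagens called went from 0 to 2 of 35 for KIKO against WT under oil (1.81% of all genes), from 1 to 5 for ERKO against WT under oil (22.5%), from 3 to 5 for KIKO against WT under E2 (4.03%) and from 2 to 4 for ERKO against WT under E2 (8.7%). The genes added under oil in ERKO were Col11a1, Col11a2, Col5a2 and Col19a1. Col5a2, a type V chain, lay at 9.81, 6.95 and 7.48 FPKM in ERKO oil against 5.27, 5.80 and 4.90 FPKM in WT oil, a difference of 0.51 ± 0.19 (adjusted p = 0.149, and 0.0151 without ERKO E2 3). Col19a1 lay at 1.30, 1.15 and 1.85 FPKM in ERKO oil, above the WT oil values given before (0.77 ± 0.23, adjusted p = 0.0864, and 0.00868 without ERKO E2 3). The genes added under E2 were Col11a1 and Col4a2 in both mutants.

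Col5a1, which helps type I fibrils to form, was highest in KIKO E2. It lay at 1.38, 1.28 and 1.26 FPKM in KIKO oil and at 2.27, 2.85 and 2.67 FPKM in KIKO E2, and no library of any other group reached those 3. Against WT E2, at 1.29, 1.05 and 1.16 FPKM, the difference was 0.73 ± 0.16 (adjusted p = 0.0492). It fell short in 11 of the 17 alternatives, whose adjusted p ran from 0.00838 to 0.249, among them the removal of any one of the 6 libraries compared. The E2 effect within KIKO was 0.64 ± 0.16 and did not pass (adjusted p = 1). In that comparison 0 of 35 collagens were called, against 0.00677% of all genes, and Col5a1 was the only collagen with an unadjusted p under 0.05, against 0.947% of all genes. The next smallest p was that of Col8a2, a short-chain collagen of endothelial and corneal membranes, at 0.34 ± 0.20 (adjusted p = 1).

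In KIKO, most collagens had a log2 change with E2 above 0, a count not tested against that of WT. The log2 change was above 0 for 27 of 35, against 54.1% of all genes, with a median of 0.12. Groups did not overlap for 9 collagens, 7 higher and 2 lower, against 7.41% of all genes (4.55% and 2.86%). Fibroblast markers summed to 87.2, 49.6 and 51.4 FPKM in KIKO oil and to 70.3 to 86.6 FPKM in KIKO E2. With that sum as a covariate the count above 0 was 22 of 35 (52.2% of all genes) and the median 0.07. In KIKO E2 against WT E2, 31 of 35 collagens had a difference above 0 (52.5% of all genes), with a median of 0.37 over the fibrillar, 0.25 over the basement membrane and 0.15 over the other genes. There, 11 collagens lay higher and 2 lower without overlap, against 11.4% and 10.5% of all genes. WT E2 libraries held 17.9, 15.4 and 141 FPKM of fibroblast markers. With the covariate, the count above 0 was 21 of 35 (48.7% of all genes), the median over all 35 went from 0.26 to 0.07. Col24a1 and Col2a1 were still called and Col5a1 was not (0.63 ± 0.16, adjusted p = 0.0930), so 2 of 35 were called, where that fit called 0.839% of all genes.

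In ERKO, no collagen of 35 was called for E2 against oil, where limma called 0% of all genes, and 0 collagens had an unadjusted p under 0.05 against 7.23% of all genes. The log2 change was above 0 for 4 of 35 (45.9% of all genes) and its median was −0.20, but 0.06 without ERKO E2 3. The smallest p values were those of Col25a1 (−0.86 ± 0.41, adjusted p = 0.473) and Col27a1, a fibrillar collagen of growing cartilage (−0.58 ± 0.30, adjusted p = 0.473). Col25a1 lay at 37.3, 32.7 and 7.47 FPKM in ERKO E2 and at 40.1, 39.4 and 38.3 FPKM in ERKO oil. Without ERKO E2 3 the 2 changes were −0.16 and −0.17. For the difference between the KIKO and ERKO responses, 0 of 35 collagens were called (0% of all genes). The smallest p values there were those of Col5a1 (0.72 ± 0.23) and Col27a1 (0.87 ± 0.42), both with an adjusted p of 0.745, and 1 collagen had an unadjusted p under 0.05 against 2.19% of all genes.

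**Figure D2:**
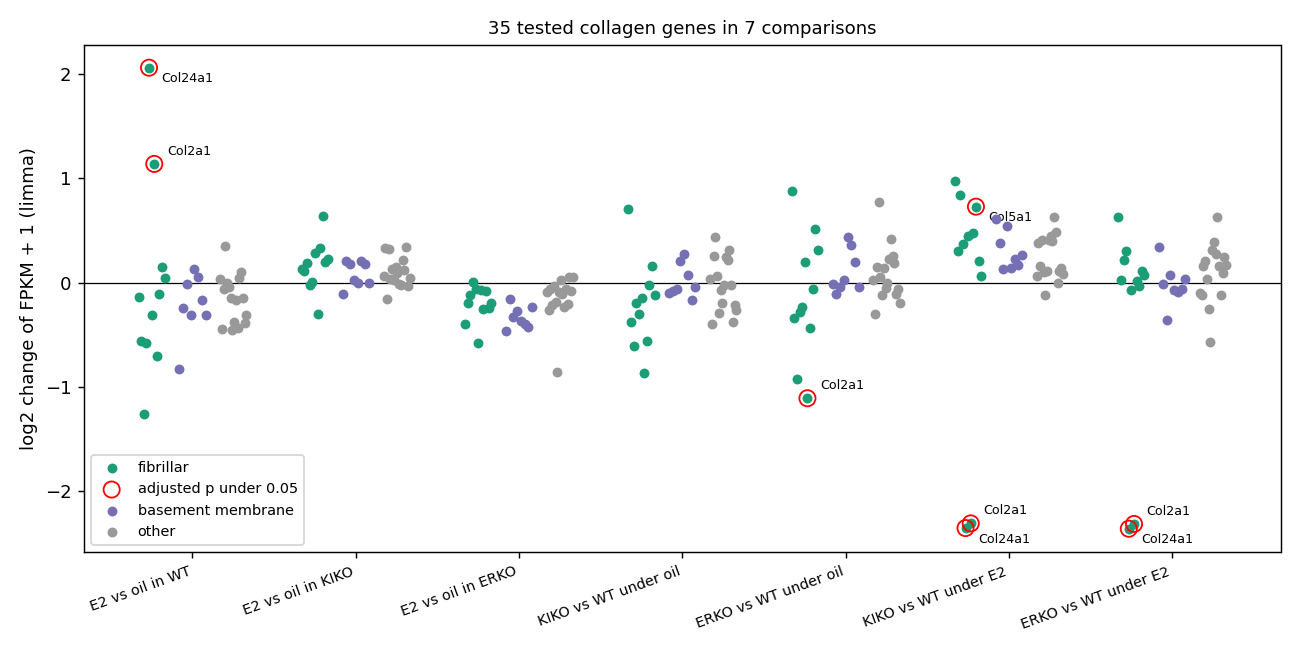
Log2 change (limma, FPKM + 1) of each of the 35 tested collagen genes in 7 comparisons, coloured by class, with red rings around those at an adjusted p under 0.05. Rings fall on Col24a1, Col2a1 and Col5a1 only, all fibrillar, while the points for KIKO against WT under E2 lie mostly above 0 (31 of 35) and those for E2 against oil in ERKO mostly below (4 of 35 above).

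Among basement membrane collagens none of the 8 was called in any of the 10 comparisons. Col4a2 lay at 31.7, 33.3 and 30.3 FPKM in WT oil and at 24.4, 24.6 and 27.1 FPKM in WT E2, lower without overlap (−0.32 ± 0.27, adjusted p = 0.789). In KIKO it lay at 35.4, 38.4 and 36.7 FPKM with oil and at 36.7, 38.6 and 37.1 FPKM with E2. The difference of KIKO E2 from WT E2 was 0.55 ± 0.27 (adjusted p = 0.581, and 0.0167 without ERKO E2 3). ERKO E2 libraries spread from 13.3 to 46.8 FPKM, the lowest and the highest Col4a2 values of the series.

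Col4a1 and Col4a2 lie head to head on chromosome 8, with RefSeq start sites 21 bases apart on opposite strands, and 2 Col4a1 chains join 1 Col4a2 chain in the common trimer. Col4a1 did not follow Col4a2 in WT: it lay at 15.6, 18.6 and 18.8 FPKM with oil and at 17.1, 15.3 and 19.97 FPKM with E2. The ratio of Col4a1 to Col4a2 FPKM was 0.557 ± 0.0642 in WT oil and 0.688 ± 0.0572 in WT E2. In KIKO it was 0.460 ± 0.0759 with oil and 0.510 ± 0.0222 with E2, and in ERKO 0.528 ± 0.0140 and 0.4997 ± 0.0103. The 3 WT E2 ratios (0.703, 0.625 and 0.736) were the highest of the 18 libraries. This ratio was picked after its values were seen and was not tested.

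Other basement membrane genes were lower and varied between libraries. Col15a1, which links basement membranes to the matrix around them, lay at 2.13, 4.03 and 4.82 FPKM in WT oil and at 1.25, 0.944 and 2.76 FPKM in WT E2 (−0.83 ± 0.39, adjusted p = 0.477). Col18a1, the source of the fragment endostatin, lay at 5.93, 6.00 and 6.41 FPKM in WT oil and at 4.13, 5.41 and 5.53 FPKM in WT E2, lower without overlap (−0.25 ± 0.20, adjusted p = 0.776). Col4a5, a type IV chain on chromosome X, ranged from 1.67 to 6.97 FPKM, both ends again in ERKO E2. The lowest members were Col4a3 (mean 0.875 FPKM) and Col4a4 (0.736 FPKM), chains of the kidney filter that neighbour each other on chromosome 1.

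Summed by class, group means ran from 46.8 to 64.0 FPKM for fibrillar, 56.2 to 74.3 for basement membrane and 157 to 181 for other collagens. The fibrillar sum was 61.4 ± 10.6 in WT oil, 64.0 ± 10.5 in WT E2, 48.7 ± 4.20 in KIKO oil, 54.5 ± 0.712 in KIKO E2, 54.0 ± 9.998 in ERKO oil and 46.8 ± 23.6 in ERKO E2. It was lower in KIKO E2 than in WT E2 without overlap, but that order rested on Col2a1: the mean log2 difference was −0.22 with it and 0.32 without it. The basement membrane sum was 66.8 ± 5.40 in WT oil, 56.2 ± 7.66 in WT E2, 70.0 ± 4.003 in KIKO oil, 74.3 ± 3.80 in KIKO E2, 68.0 ± 6.89 in ERKO oil and 59.6 ± 33.5 in ERKO E2. KIKO E2 lay above WT E2 in every library, 1.32-fold between the means. Markers of endothelium went the other way without overlap, at 60.0 to 78.1 FPKM in KIKO E2 and 81.8 to 93.8 in WT E2. Those of mural cells of vessels overlapped (49.9 to 69.4 and 58.6 to 89.0). Fibroblast markers also overlapped, at 70.3 to 86.6 FPKM in KIKO E2 and at 17.9, 15.4 and 141 FPKM in WT E2. In the same order, those WT E2 libraries held basement membrane sums of 52.3, 51.2 and 65.0 FPKM. The part of these markers in the sums was not tested. The sum of the other class ran from 157 ± 46.8 in ERKO E2 to 181 ± 9.76 in WT oil, and was lower in KIKO oil (161 ± 4.89) than in WT oil without overlap. The large SDs of ERKO E2 come from its 3 libraries, with fibrillar sums of 71.9, 43.4 and 25.1 and basement membrane sums of 93.1, 59.7 and 26.1 FPKM. Sums got no test.

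**Figure D3:**
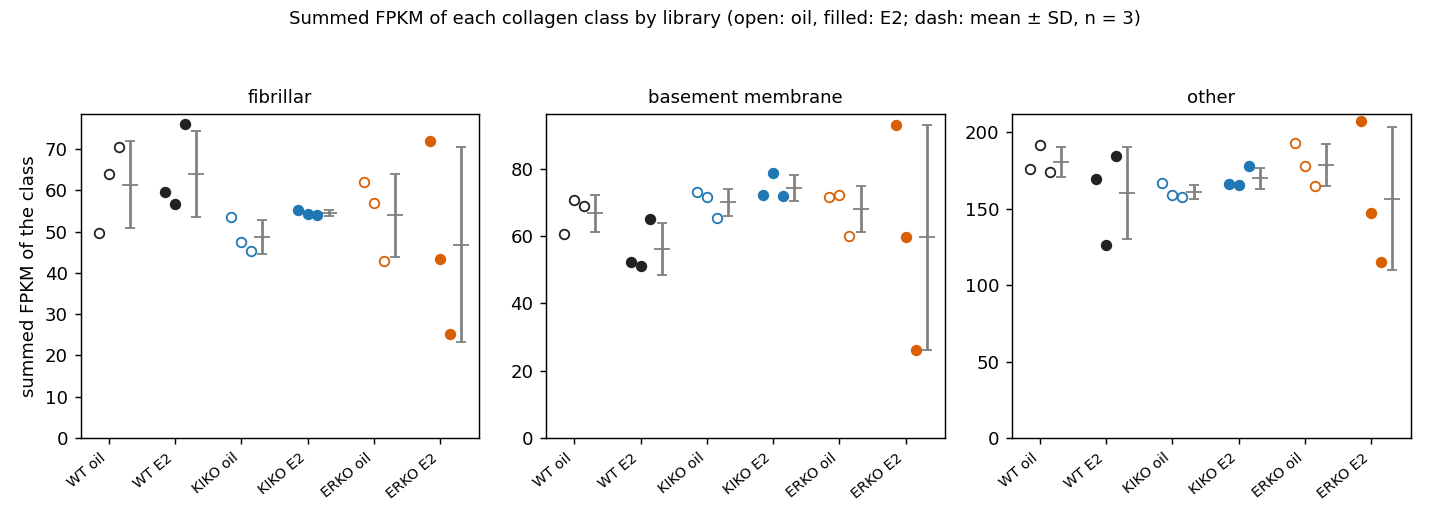
Summed FPKM of the 11 fibrillar, 8 basement membrane and 24 other collagen genes in each library, by group, with the mean ± SD of 3 libraries. The basement membrane sum of KIKO E2 (74.3 ± 3.80) lies above that of WT E2 (56.2 ± 7.66), and the ERKO E2 libraries are spread widest in all 3 classes.

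Col1a1, Col1a2, Col3a1 and Col6a2 were lowest in the 5 libraries that were lowest in fibroblast markers. Col1a1, a chain of type I collagen, lay at 2.26, 12.6 and 14.1 FPKM in WT oil and at 1.38, 1.17 and 8.46 FPKM in WT E2. In KIKO it lay between 3.22 and 7.60 FPKM, and in ERKO between 1.14 and 6.79 FPKM. The 5 libraries lowest in fibroblast markers were also the 5 lowest in Col1a1 (1.14 to 2.26, against 3.21 to 14.1 FPKM in the other 13). The same 5 were the lowest in Col3a1, type III collagen of vessels and skin (0.456 to 0.730 against 1.14 to 7.59 FPKM). They were also the lowest in Col1a2 (2.24 to 4.82 against 4.94 to 11.9 FPKM) and in Col6a2, a microfibril chain (2.64 to 3.85 against 4.40 to 8.40 FPKM). These 4 of 35 tested collagens (11.4%) were the ones for which all 5 coincided, as they did for 0.25% of the 14777 genes tested. In 9 further collagens (25.7%), among them 6 basement membrane chains, 4 of the 5 coincided, as in 6.88% of all genes. Col5a2 and Col6a3 shared 3 and Col6a1 shared 2. The 5 libraries were picked by their marker sums, and these counts got no test. Col24a1 shared 1 and Col2a1 shared 2 of the 5. Within WT, Col2a1 was higher where fibroblast markers were low, both after E2 (22.0 and 24.7 against 20.01 FPKM) and after oil (12.01 against 8.92 and 8.03 FPKM). Within ERKO it was lower there, both after oil (3.57 against 4.28 and 3.81 FPKM) and after E2 (2.36 against 6.19 and 3.16 FPKM). These orders within groups were not tested.

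With the fibroblast marker sum as a covariate, the Col24a1 change with E2 in WT was 2.06 ± 0.14 (adjusted p = 2.24e-06) and that of Col2a1 1.14 ± 0.22 (adjusted p = 0.0198). Col1a1 was then called as lower in WT E2 than in WT oil (−0.73 ± 0.15, adjusted p = 0.0260), having been −1.26 ± 0.66 (adjusted p = 0.549) without the covariate. It was also called as lower in ERKO under oil (−0.82 ± 0.14, adjusted p = 0.0184). Col1a2, the other type I chain, was called in neither (−0.24, adjusted p = 0.513, and −0.21, adjusted p = 0.332). Nor was Col3a1 (−0.23, adjusted p = 0.640, and −0.33, adjusted p = 0.211). The covariate was chosen after seeing the data, and Col1a1 itself followed it closely (Pearson r = 0.93). In these 2 comparisons that fit called 1.08% and 3.24% of all genes.

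**Figure D4:**
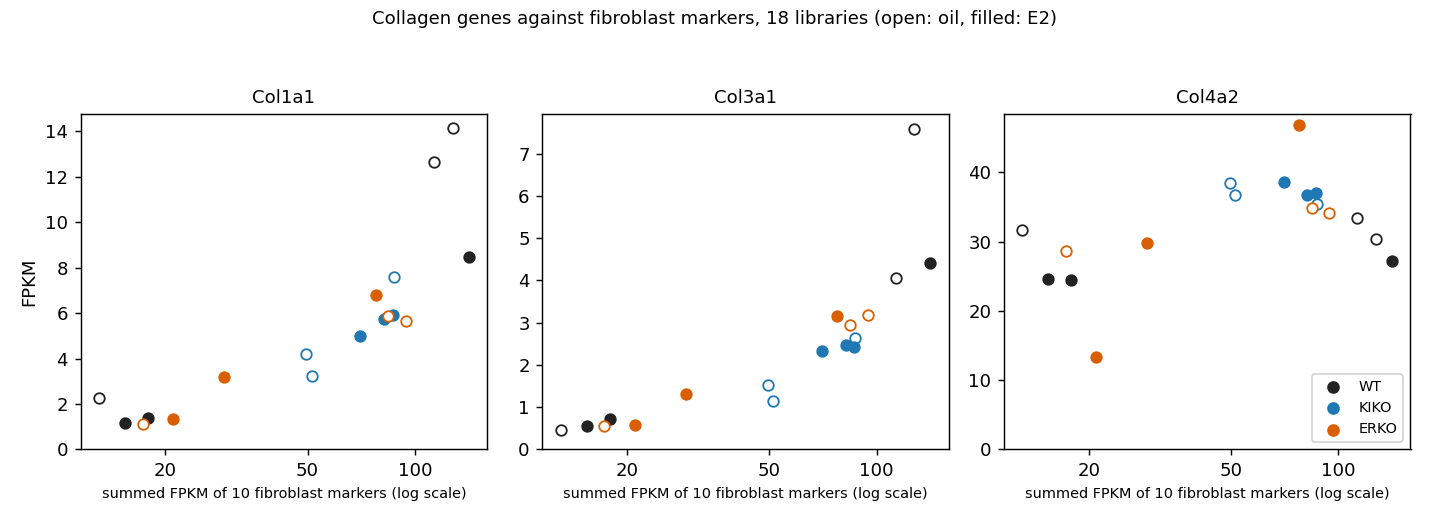
FPKM of Col1a1, Col3a1 and Col4a2 against the summed FPKM of 10 fibroblast markers (log scale) in the 18 libraries (open for oil, filled for E2, coloured by genotype). Col1a1 and Col3a1 climb with the markers across genotypes, from below 2.26 and 0.730 FPKM in the 5 libraries at 13.04 to 21.0 FPKM of markers. Col4a2 in WT lies lower with E2 (24.4 to 27.1) than with oil (30.3 to 33.3), a difference that was not called.

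The most abundant collagens of the other class passed the test in no comparison over all 18 libraries. Col23a1 lay at 63.1, 67.5 and 59.9 FPKM in WT oil and at 57.0, 45.3 and 53.0 FPKM in KIKO oil, lower without overlap (−0.30 ± 0.15, adjusted p = 0.543). Col25a1 ranged from 20.3 to 44.2 FPKM when ERKO E2 3 is left aside. Col9a2 lay at 21.7, 18.1 and 13.6 FPKM in WT oil and at 13.8, 11.9 and 13.8 FPKM in WT E2 (−0.39 ± 0.18, adjusted p = 0.490). Col6a1 lay at 14.8, 19.0 and 15.02 FPKM in WT oil and at 13.1, 9.78 and 11.8 FPKM in WT E2, lower without overlap (−0.46 ± 0.23, adjusted p = 0.520). Nor was any other of the 16 tested genes of this class called over all 18 libraries. Col19a1, the interneuron collagen described above, was called without ERKO E2 3 in ERKO against WT under oil, where its mean was 1.43 FPKM against 0.420 in WT oil.

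Genes that build, modify or break down collagen were tested beside the chains. For E2 in WT, where 0.785% of all genes were called (0.602% as higher), 1 of 10 genes of collagen breakdown fell, Timp1, an inhibitor of matrix metalloproteinases (−2.12, adjusted p = 0.000616), and 1 of 16 basement membrane partners rose, Lamb3, a laminin chain. Lamb3 lay at 2.67, 2.65 and 1.85 FPKM in WT oil and at 7.26, 8.87 and 7.19 FPKM in WT E2 (1.38 ± 0.21, adjusted p = 0.00273). Under E2 it was lower than in WT in KIKO (−1.65 ± 0.21, adjusted p = 0.000549) and in ERKO (−1.38 ± 0.21, adjusted p = 0.00211). Lamb1, another laminin chain, was also lower under E2 in KIKO (−1.41 ± 0.31, adjusted p = 0.0426) and ERKO (−1.55 ± 0.31, adjusted p = 0.02005). These were the 2 of 16 partners called in either comparison over all 18 libraries, against 0.947% of all genes for KIKO and 1.3% for ERKO. Without ERKO E2 3, Agrn, the proteoglycan agrin, was also called as higher in ERKO E2 (0.44, adjusted p = 0.00546).

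Of the 24 tested genes for modification and processing of collagen, none was called for E2 in WT over all 18 libraries, and 1, P4ha3, was called as lower without ERKO E2 3 (−0.42, adjusted p = 0.0259; 2.69% of all genes). P4ha2, a subunit of the enzyme that hydroxylates collagen prolines, exceeded its WT level in ERKO under E2 (0.66 ± 0.13, adjusted p = 0.0176). Plod1, which hydroxylates lysines, was below its WT level in ERKO under oil (−0.58 ± 0.10, adjusted p = 0.0253). In that comparison, where 1.43% of all genes were called, 2 of 10 breakdown genes were called as lower, Mmp14, a membrane-bound collagenase (−0.52 ± 0.10, adjusted p = 0.0326), and Timp1 (−2.24, adjusted p = 0.00701). Timp1 was also lower in KIKO oil than in WT oil (−1.90, adjusted p = 0.0273; 0.0135% of all genes called), and its E2 response was higher in ERKO than in WT by 3.00 (adjusted p = 0.00129; 0.277% called). Without ERKO E2 3, where 22.5% of all genes were called, ERKO against WT under oil had 5 of 24 modification genes lower, 3 of 10 breakdown genes lower and 1 higher, and 2 of 8 collagen receptors lower, Ddr1 (−0.33, adjusted p = 0.0126) and Gpr56 (−0.26, adjusted p = 0.0490). Elsewhere that library's removal added Plod1 and Mmp14 as lower in KIKO oil (1.81% of all genes), P4ha2 as higher in KIKO E2 (4.03%), P4hb and Plod1 as lower in ERKO E2 (8.7%), each against WT, and Lamb3 as smaller in its KIKO than its WT response (0.284%). Over all 18 libraries no receptor was called in any of the 10 comparisons. None of the 6 fibril proteoglycans was called with or without ERKO E2 3, and neither E2 in KIKO nor E2 in ERKO called any gene of the 5 lists.

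Over the 18 libraries, the genes whose log2(FPKM + 1) profile was most like that of Col24a1, among 14777, were Greb1 (Pearson r = 0.982), Fam151a (0.978), Tnxb (0.971) and Mad2l1 (0.966). Greb1 is a widely used estrogen-induced gene, Tnxb encodes the matrix protein tenascin X, and Mad2l1 a spindle checkpoint protein. The libraries are shared by all genes, and the 3 WT E2 libraries set apart from the other 15 carry most of these values, so they are given as a description. Among the collagens, Col2a1 was the most alike (r = 0.90).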

How the data were processed

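RNA of the arcuate nucleus was sequenced from 18 samples, 3 in each of 6 groups. Per the submitters' processing notes, TopHat2 2.0, Cuffdiff and the build mm10 were used; the annotation and counting are not given in the sources used here. The authors deposited FPKM values per gene with confidence bounds and a status, all OK for collagens. Start positions in the tables did not lie on GRCm38, so only chromosomes are taken from them. Rows sharing a symbol were summed. Genes averaging 0.5 FPKM or more, without 728 small RNA symbols, were fitted with limma 3.58.1 (R 4.3.3) on log2(FPKM + 1) with 6 group means over all 18 libraries (12 residual degrees of freedom), a variance trend and robust moderation. The 10 comparisons were tested two-sided, adjusted by Benjamini-Hochberg over 14777 genes, at a threshold of 0.05. Python 3.11.15, pandas 2.3.3, numpy 2.4.6 and matplotlib 3.10.9 were used for tables and figures.

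Depth was read from the confidence bounds: the fragment number implied, the square of 2 × FPKM over the half-width, was whole within 0.02 for 361 of 390 collagen values under 300 fragments (92.6%). Named genes are collagens past the threshold in any comparison, the 4 highest of each class, the 2 with the smallest p where none passed, members of 5 lists past the threshold and the 4 genes most like Col24a1; others were named after their values were seen. Members and lists were chosen with earlier results of these data known. On simulated data for E2 against oil in WT, 82 of 100 genes changed by 1 and 100 of 100 changed by 2 on the log2 scale were called, with 4 of 14577 unchanged genes. Pseudocount, filter, scaling, variance model, libraries, block, class definition and a fibroblast covariate were varied.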

Additional observations from a re-analysis of the deposited data

Results flagged for a closer look

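The E2 response of Col24a1 differed between genotypes by a test of the difference itself. It was smaller than in WT by −2.05 on the log2(FPKM + 1) scale in KIKO (limma adjusted p = 8.75e-05) and by −2.13 in ERKO (adjusted p = 6.34e-05). Each of the 3 WT E2 libraries lay above all 15 others. The KIKO difference kept its sign in all 23 alternatives and missed the threshold only with a pseudocount of 0.1 (−3.00, adjusted p = 0.0600). The ERKO difference passed in all 22.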

How the results depend on the processing

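No value changed sign among the called collagens. The count of collagens called for the KIKO minus WT response (1) was 0 with a pseudocount of 0.1 and 2 with quantile normalization or only the groups compared. With only the groups compared it was also 1 for ERKO against WT under E2 (2 before), 3 for ERKO against WT under oil (1 before) and 5 for KIKO against WT under E2 (3 before). With the fibroblast covariate it was 2 for ERKO against WT under oil. Leaving out 1 library gave 1 to 3 for E2 in WT, 1 to 2 for either response difference from WT, 2 to 4 for ERKO and 2 to 5 for KIKO against WT under E2, 0 to 5 for ERKO and 0 to 2 for KIKO against WT under oil. The upper ends of these ranges came from leaving out ERKO E2 3, except ERKO minus WT, where leaving out ERKO E2 1 added Col2a1. Without the most abundant member, the log2 difference of class sums went from 0.06 to −0.32 for fibrillar genes with E2 in WT, from −0.22 to 0.32 for fibrillar genes in KIKO against WT under E2, from 0.0705 to −0.0716 for basement membrane genes in KIKO against WT under oil and from −0.16 to −0.10 for other genes in that comparison. Replicate numbers showed no common pairing over all groups: deviations of same-numbered libraries correlated at a median of −0.06 over 45 pairs, 11 of them over 0.1. These pairs also join libraries of different genotypes, so pairing within a genotype was not examined. With the number as a replicate block, only the Col5a1 call in KIKO E2 against WT E2 was lost (0.73, adjusted p = 0.0951). Low depth limits the lowest members.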

Other observations

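The 8 collagens below the filter on low values were Col9a1, Col22a1, Col6a4, Col14a1, Col28a1, Col6a6, Col17a1 and Col10a1, with means of 0.0549 to 0.456 FPKM. Col10a1, a marker of hypertrophic cartilage, was listed at 0 in 7 of the 18 libraries and reached 0.278 FPKM. Col6a6, a microfibril chain, lay at 0.0373, 0.0907 and 0.0867 FPKM in WT E2, below all 3 values of WT oil (0.204, 0.0963 and 0.271 FPKM) and of KIKO E2 (0.186, 0.223 and 0.201 FPKM). It was not tested and was picked after its values were seen.

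Where annotated exons overlap a gene on the opposite strand, reads cannot be told apart without strand, and strand use in counting is not stated. By the GENCODE annotation, 5.65% of the exonic bases of Col4a3 and 6.07% of those of Col9a3 overlap such a gene, while Col24a1, Col2a1 and Col11a1 overlap none.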
